A study of Homo sapiens with 8 samples.

Results

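The genes described here are 10 parts of the oxygen-sensing pathway in HEL cells: the hypoxia-inducible factor (HIF) subunits HIF1A, EPAS1 and ARNT, the prolyl hydroxylases EGLN1, EGLN2 and EGLN3, the ubiquitin ligase subunit VHL, and the HIF target genes KDM3A, ANKRD37 and ADM. Each was taken from the probe set with the highest mean among those naming that gene alone. This gave 9 measured genes of 17958 measured in all, and all 9 lay above the filter on low signals, among 12570 genes tested. ANKRD37, an ankyrin-repeat gene, has its only listed probe set in common with UFSP2, so no value is given for it. HEL is an established human erythroleukaemia line that depends on an activated JAK2 kinase. The cells received what the labels spell MDSO alone (the control), the JAK2 inhibitor LY2784544 at 0.5 µM, the telomerase inhibitor GRN163L at 20 µM, or both agents, and RNA was taken after 48 h. Every group was represented by 2 arrays, with 1 array coming from experiment 1 and 1 from experiment 2 on the same line, and the doses in the combination were not restated in the labels. The oxygen level of the cultures is not given in the sources used here.

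An active HIF is a pair of an alpha subunit, HIF1A or EPAS1 (HIF-2 alpha), with the constitutive partner ARNT (HIF-1 beta). The EGLN enzymes use oxygen to hydroxylate prolines of the alpha subunit, VHL binds the hydroxylated protein and the ligase marks it for degradation, so that the alpha proteins accumulate when oxygen is low. HIF then binds the core RCGTG (R being A or G) near its target genes, among them EGLN1 and EGLN3 themselves, which closes a feedback loop. Much of this control acts on protein, which an RNA array does not measure. The pathway is known for controlling erythropoietin, whose receptor signals through JAK2.

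On the arrays with LY2784544, transcripts of EPAS1, of the hydroxylase EGLN1 and of the secreted peptide ADM were lower, by 1.12, 1.32 and 0.70 on the log2 scale. ARNT, VHL and EGLN2 were at -0.04, 0.02 and 0.18, HIF1A was at -0.36, and EGLN3 and KDM3A were lower mainly in the first experiment. None of the 9 genes was called with GRN163L. These differences compare the 4 arrays with an agent, alone or combined, with the 4 without it. With LY2784544, 7 of 9 genes had lower means, and 3 of 9 were called lower. That count was 1 without the GRN163L array of experiment 1 (EPAS1), 2 without that of experiment 2, and 5 without the control array of experiment 2. Over all genes tested, 3.53% were called lower and 4.46% called in either direction in that comparison. That is 116 genes higher and 444 lower, a split that became 276 higher and 232 lower with all arrays set to one median, where EPAS1, EGLN1 and ADM were still called lower. A gene was called at a limma adjusted p below 0.05, adjusted over all 12570 genes. The median difference was -0.55 over the 9 genes and -0.06 over all genes.

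**Figure D1:**
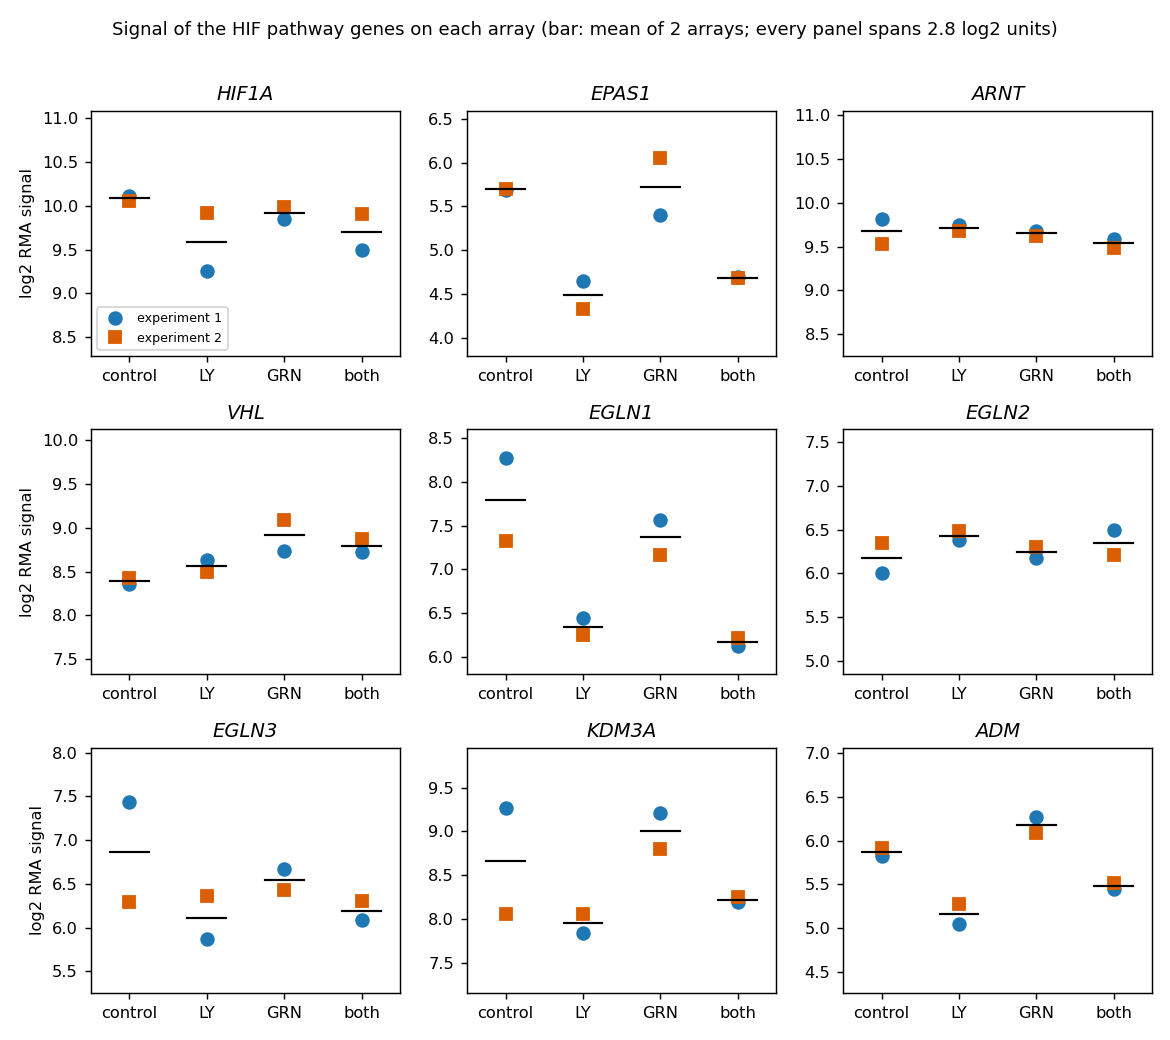
Log2 RMA signal (vertical axis) of each of the 9 measured genes on every array, by group (LY, LY2784544; GRN, GRN163L; both, the combination), with circles for experiment 1, squares for experiment 2 and a bar at the mean of the 2 arrays; every panel spans the same range. EPAS1, EGLN1 and ADM sit lower on all 4 arrays with LY2784544 than on all 4 without, and the control of experiment 1 stands high for EGLN1, EGLN3 and KDM3A.

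Array medians over the tested genes lay between 7.23 and 7.51, and their means were lower by 0.146 on arrays with LY2784544 than without it. SOCS3, which JAK-STAT signalling induces and which inhibits JAK kinases in return, was at 8.29 and 8.41 in control, 7.35 and 7.10 under LY2784544, 7.02 and 6.85 under GRN163L, and 5.23 and 5.58 under both agents. It was lower with either agent, so it does not single out the JAK2 inhibitor: the differences over 4 against 4 arrays were -1.33 with LY2784544 (limma adjusted p = 0.00176) and -1.62 with GRN163L (adjusted p = 0.00437, and 0.0605 without the GRN163L array of experiment 2). Of 10 markers of the erythroid and megakaryocytic lineage, the 7 with a probe set of their own, among them GATA1, TAL1 and ITGA2B, had means between 8.51 and 11.24. Of 11 measured markers of other cells 7 lay under the filter level of 4.37, among them the endothelial gene VWF. The endothelial genes CDH5 and TEK and the collagen genes COL1A1 and COL1A2 lay above it. Group means of CDH5 were 7.66 in control, 6.66 with LY2784544, 6.77 with GRN163L and 7.30 with the combination, and its difference in LY2784544 against control, close in size to that of EPAS1, was -0.995 (adjusted p = 0.146). TEK had means of 6.91, 7.14, 6.91 and 6.97 in the same order. Their part in the differences of the 9 genes was not tested. No marker of either list was called in any comparison. In bulk RNA, fewer cells with a transcript and less of it per cell cannot be told apart.

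Of the alpha subunits, EPAS1 fell and HIF1A was not called with LY2784544. EPAS1 was at 5.69 and 5.70 on the control arrays of experiments 1 and 2, 4.65 and 4.33 on those given LY2784544, 5.40 and 6.05 under GRN163L, and 4.69 and 4.68 under both agents. Its highest array with LY2784544 (4.69) lay below its lowest without it (5.40), so the groups did not overlap. The difference over 4 against 4 arrays was -1.12 (SE 0.16, 95% interval -1.48 to -0.76, adjusted p = 0.00916), which is a 2.18-fold lower signal. The arrays with LY2784544 lay close to the filter level of 4.37, so the fold may be understated by RMA, which compresses differences between dim probe sets. EPAS1 was called lower in LY2784544 against control (-1.205, SE 0.22, adjusted p = 0.0446) and in the combination against control (-1.01, SE 0.22, adjusted p = 0.0485). Of all genes, 0.883% and 2.71% were called lower there, and 1.27% and 3.47% in either direction. These comparisons share the control arrays. Neither call held without any 1 of the arrays compared, with adjusted p of 0.0809 to 0.203, nor without the filter (0.0545 and 0.0583), nor with all arrays set to one median (0.0637 and 0.0787).

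HIF1A, the other alpha subunit, was at 10.11 and 10.06 without either agent, 9.85 and 9.99 under GRN163L, 9.26 and 9.92 under LY2784544, and 9.49 and 9.91 under both. The lowest values came from experiment 1, on the array given LY2784544 and the one given both agents, and the groups overlapped. The difference with LY2784544 was -0.36 (95% interval -0.74 to 0.02, adjusted p = 0.246), at -0.605 within experiment 1 and -0.11 within experiment 2. The difference of EPAS1 minus that of HIF1A was -0.765, at -0.27 within experiment 1 and -1.26 within experiment 2. This pair of genes, like those of the hydroxylases, was chosen after the values were seen, so the value is a description with no test.

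ARNT, the shared partner of both alpha subunits, was at 9.82 and 9.53 in control, 9.75 and 9.68 under LY2784544, 9.68 and 9.62 under GRN163L, and 9.59 and 9.48 under both agents. All 8 arrays lay within this narrow band. The difference with LY2784544 was -0.04 (95% interval -0.295 to 0.22, adjusted p = 0.873), and 0.109 with all arrays set to one median.

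EGLN1, the main oxygen-sensing hydroxylase of the alpha subunits, showed the largest difference of the 9 genes. It was at 8.27 and 7.32 without either agent, 7.57 and 7.16 under GRN163L, 6.44 and 6.25 under LY2784544, and 6.13 and 6.22 under both. The 4 arrays with LY2784544 lay within 6.13 to 6.44, all below the lowest without it, 7.16. The difference was -1.32 (SE 0.205, 95% interval -1.79 to -0.85, adjusted p = 0.0118), a 2.50-fold lower signal, at -1.635 within experiment 1 and -1.005 within experiment 2. In the combination against control it fell by 1.62 on the log2 scale (SE 0.29, adjusted p = 0.0258). In LY2784544 against control the difference of -1.45 missed the threshold (adjusted p = 0.0588) and passed it in the blocked fit (adjusted p = 0.0177), as did the combination against GRN163L (-1.19, adjusted p = 0.13 and 0.0482 with the block), though not with the block and all arrays set to one median (adjusted p = 0.0565). Without the control array of experiment 1, which stood high, the difference over 4 against 3 arrays was -1.08 (adjusted p = 0.0256), but the call in the combination was lost (-1.145, adjusted p = 0.0825). That call was also lost without the combination array of experiment 1 (-1.575, adjusted p = 0.106) and without either GRN163L array (adjusted p = 0.058 each). The call over 4 against 4 was lost without the GRN163L array of experiment 1 (-1.22, adjusted p = 0.0731).

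The other hydroxylases did not follow it in the test. EGLN2 was at 6.00 and 6.35 in control, 6.38 and 6.48 under LY2784544, 6.18 and 6.30 under GRN163L, and 6.49 and 6.21 under both agents. No group stood apart, and the difference with LY2784544 was 0.18 (95% interval -0.11 to 0.47, adjusted p = 0.427). EGLN3, a hydroxylase strongly induced by HIF in many cells, was at 7.44 and 6.29 without either agent, 6.67 and 6.43 under GRN163L, 5.87 and 6.36 under LY2784544, and 6.09 and 6.30 under both. The control array of experiment 1 stood above the other 7. The difference with LY2784544 was -0.55 (95% interval -1.10 to -0.005, adjusted p = 0.218), and it was -1.075 within experiment 1 and -0.03 within experiment 2. Without the control array of experiment 2 EGLN3 was called (-0.84, adjusted p = 0.047), and without that of experiment 1 it was at -0.265 (adjusted p = 0.459). As a description, the difference of EGLN1 minus that of EGLN2 was -1.50, at -1.98 and -1.025 within experiments 1 and 2, and that of EGLN1 minus that of EGLN3 was -0.77, at -0.56 and -0.975. The difference of EGLN3 minus that of EGLN2 was -0.735, at -1.42 and -0.05.

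VHL, the subunit that recognises hydroxylated alpha protein, was at 8.36 and 8.43 in control, 8.63 and 8.50 under LY2784544, 8.74 and 9.09 under GRN163L, and 8.72 and 8.87 under both agents. Its 4 arrays with GRN163L were all above its 4 without it, as were those of 3.04% of all genes tested. The difference with GRN163L over 4 against 4 arrays was 0.375 (95% interval 0.10 to 0.65), which did not pass over all genes (adjusted p = 0.209), as in GRN163L against control alone (0.52, adjusted p = 0.995). With LY2784544 it was at 0.02 (95% interval -0.25 to 0.30, adjusted p = 0.924).

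ADM encodes adrenomedullin, a vasodilator peptide induced by HIF. It was at 5.82 and 5.92 without either agent, 6.27 and 6.09 under GRN163L, 5.05 and 5.28 under LY2784544, and 5.45 and 5.52 under both. The groups with and without LY2784544 did not overlap, and the order of the 4 groups was the same in both experiments, with GRN163L highest and LY2784544 lowest. ADM fell with LY2784544 by 0.70 (SE 0.11, 95% interval -0.96 to -0.44, adjusted p = 0.013), a 1.62-fold lower signal, at -0.795 and -0.605 within the experiments. Each single comparison missed the threshold, at -0.705 for LY2784544 against control (adjusted p = 0.0866) and -0.695 for the combination against GRN163L (adjusted p = 0.112). With GRN163L it was at 0.315 (95% interval 0.06 to 0.57, adjusted p = 0.245). The call with LY2784544 was lost without the GRN163L array of experiment 1 (-0.655, adjusted p = 0.0731) or of experiment 2 (-0.745, adjusted p = 0.0501).

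KDM3A encodes an oxygen-dependent histone demethylase that removes H3 lysine methylation and is itself a HIF target. It was at 9.27 and 8.06 in control, 7.84 and 8.06 under LY2784544, 9.21 and 8.80 under GRN163L, and 8.19 and 8.25 under both agents. The control array of experiment 2 lay among the arrays with LY2784544, so the groups overlapped. The difference with LY2784544 was -0.75 (95% interval -1.30 to -0.20, adjusted p = 0.115), at -1.225 within experiment 1 and -0.275 within experiment 2. It was called without the control array of experiment 2 (-1.05, adjusted p = 0.0212), and was at -0.45 without that of experiment 1 (adjusted p = 0.202).

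**Figure D2:**
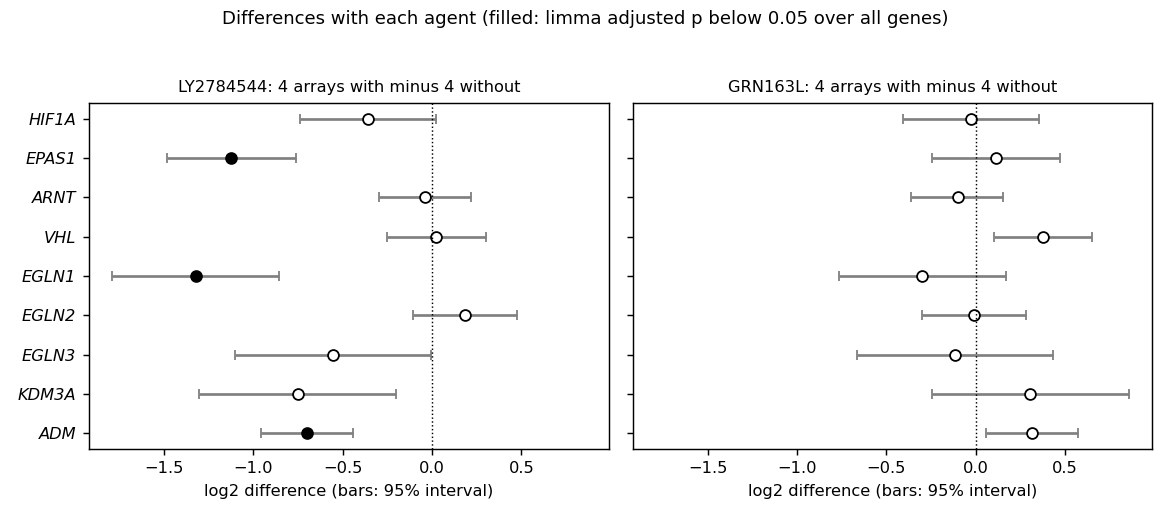
Log2 difference (horizontal axis) of the 9 genes over the 4 arrays with an agent minus the 4 without, for LY2784544 on the left and GRN163L on the right, with 95% limma intervals; filled points have an adjusted p below 0.05. EPAS1, EGLN1 and ADM are filled on the left at -1.12, -1.32 and -0.70, and no point is filled on the right.

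The values of 3 of the 9 genes, EPAS1, EGLN1 and ADM, were lower on every array with LY2784544 than on any array without it, as were 8.66% of all genes tested. The effect of LY2784544 was read a second time on arrays that share none with the first, by setting the combination against GRN163L. The differences from control and from GRN163L were -1.205 and -1.04 for EPAS1, -1.45 and -1.19 for EGLN1, -0.705 and -0.695 for ADM, -0.715 and -0.785 for KDM3A, and -0.75 and -0.355 for EGLN3. Called members numbered 1 in the first (1.27% of all genes) and 0 in the second (0.541%), where EGLN1 passed with the block but not with the block and one median together. The interaction of the agents was called for no gene (limma, 464 of 12570 genes at an unadjusted p below 0.05), and its adjusted p was 0.999 for each of the 9. Its 95% intervals were wide, from -0.50 to 0.52 for ADM and from -0.67 to 1.19 for EGLN1. Departures within those intervals were not excluded.

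GRN163L alone against control called no gene of any kind by limma (595 of 12570 at an unadjusted p below 0.05), and 0.382% of genes were called over 4 against 4 arrays, none of them among the 9. Differences over 4 against 4 arrays ran from -0.30 for EGLN1 (95% interval -0.77 to 0.17) to 0.375 for VHL. The combination against LY2784544, which asks what GRN163L added, gave differences from -0.18 for ARNT to 0.32 for ADM, with no member called (0.31% of all genes).

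Between the control arrays, experiment 1 was higher by 1.21 for KDM3A, 1.15 for EGLN3 and 0.95 for EGLN1, which put them at the 99.7th, 99.6th and 99.1st percentile of all genes by that difference. EPAS1, ADM and HIF1A differed by -0.01, -0.10 and 0.05. Of 20 further HIF targets outside glycolysis 19 were higher in the control of experiment 1, with a median of 0.41, against 9 of 17 glycolytic targets (median 0.04) and 48.3% of all genes. Of 15 other JmjC demethylases 14 were higher (median 0.26), and KDM4B and KDM4C are in both this list and that of the 20 targets. With 1 control array per experiment these are differences between arrays, and their part in the larger falls of experiment 1 was not tested.

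**Figure D3:**
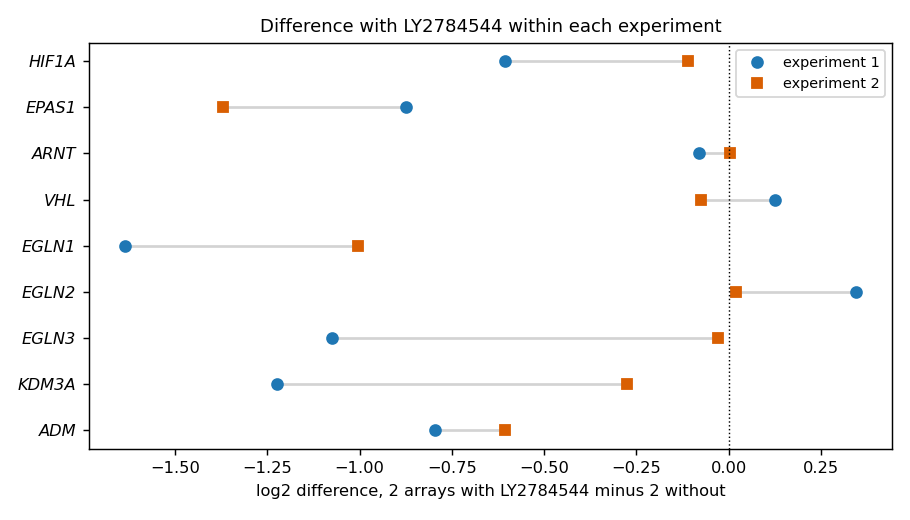
Log2 difference (horizontal axis) between the 2 arrays with LY2784544 and the 2 without it inside each experiment, for the 9 genes; circles are experiment 1 and squares experiment 2. EGLN3 and KDM3A lie at -1.075 and -1.225 in experiment 1 and at -0.03 and -0.275 in experiment 2, while ADM lies at -0.795 and -0.605 and EGLN1 at -1.635 and -1.005.

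Promoter windows are shown for the genes called lower with LY2784544 and for KDM3A, to show where the HIF core stands in them. They are the 250 bases upstream of the start listed by RefSeq on GRCh38.p14, on the gene's own strand, and capitals mark ACGTG or GCGTG, or their reverse complements CACGT and CACGC. Overlapping matches were taken as 1 place. The windows lie at chr2:46297157-46297406 (EPAS1, plus strand), chr1:231422288-231422537 (EGLN1, minus strand), chr11:10304823-10305072 (ADM, plus strand) and chr2:86441121-86441370 (KDM3A, plus strand, the first of 2 listed starts). The KDM3A window lies inside the gene span of RefSeq, which begins upstream of it at chr2:86437044.
EPAS1: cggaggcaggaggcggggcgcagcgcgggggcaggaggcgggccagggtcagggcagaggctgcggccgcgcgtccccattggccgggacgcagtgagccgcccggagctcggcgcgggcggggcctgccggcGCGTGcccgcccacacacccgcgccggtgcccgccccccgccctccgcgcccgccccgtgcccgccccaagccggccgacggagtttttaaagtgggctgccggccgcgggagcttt
EGLN1: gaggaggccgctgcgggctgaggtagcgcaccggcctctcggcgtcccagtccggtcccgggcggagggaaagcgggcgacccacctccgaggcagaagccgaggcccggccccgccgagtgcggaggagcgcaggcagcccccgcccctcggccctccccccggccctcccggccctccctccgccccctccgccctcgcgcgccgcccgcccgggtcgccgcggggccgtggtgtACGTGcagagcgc
ADM: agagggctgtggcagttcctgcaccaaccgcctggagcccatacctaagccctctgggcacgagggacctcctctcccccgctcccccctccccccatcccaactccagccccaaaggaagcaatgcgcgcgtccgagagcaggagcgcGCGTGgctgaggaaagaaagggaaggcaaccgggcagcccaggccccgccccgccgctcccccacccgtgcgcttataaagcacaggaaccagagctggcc
KDM3A: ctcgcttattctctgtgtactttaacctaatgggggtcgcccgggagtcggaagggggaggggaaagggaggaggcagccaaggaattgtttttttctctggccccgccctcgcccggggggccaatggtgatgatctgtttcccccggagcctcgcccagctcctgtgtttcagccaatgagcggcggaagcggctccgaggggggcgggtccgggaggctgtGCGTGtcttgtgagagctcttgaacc
The match begins 117 bases before the listed start in EPAS1, 13 in EGLN1, 101 in ADM and 26 in KDM3A. Windows at the first listed start were read for 9 of the 10 genes, all but VHL, and 7 of the 9 held a match. These also include EGLN2, whose transcript did not pass the test, while EGLN3 and ARNT had none in this window. HIF1A and EGLN2, like KDM3A, have 2 listed starts. The second window held a match in KDM3A and none in HIF1A and EGLN2. A match was held by 43.2% of 35116 promoter windows of this length, which count every listed start. It was held by 59.4% of the 16148 with at least 60% G and C, a base content that all 9 first windows reach. The second window of HIF1A has 31.2%. A match describes letters only and shows no binding.

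Other genes of the pathway were given from lists chosen with earlier results of these data known. The 11 tested further components include the coactivators CREBBP and EP300, the asparagine hydroxylase HIF1AN and the VHL scaffold CUL2. None was called in any comparison of the main fit. The share of all genes called ran from 0 to 4.46% over the comparisons, so 0 of 11 lies near it. With the block and one median together CREBBP and EP300 were called higher with LY2784544 over 4 against 4 arrays (limma adjusted p = 0.0463 and 0.0437). With LY2784544 against control CREBBP was at 0.42 (adjusted p = 0.338), EP300 at 0.275 (0.476), HIF1AN at 0.215 (0.649) and CUL2 at -0.315 (0.736), all by limma. Over 4 against 4 arrays the list's median was -0.045, beside -0.06 for all genes.

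HIF targets moved further. Of 17 genes of glucose uptake and glycolysis 7 were called lower over 4 against 4 arrays (3.53% of all genes) and none higher. All 17 means were lower, with a median of -0.615. Their differences ran from -2.12 to -0.07. The first 4 genes named from each target list had its smallest p in LY2784544 against control, so they are not typical of it. The comparison over 4 against 4 uses those arrays again. The count of 7 was 4 with all arrays set to one median and 11 with the experiment as a block, and it was 1 without the GRN163L array of experiment 1 and 3 without that of experiment 2. It was 3 and 4 without the control array of experiment 1 or 2, 4 without the LY2784544 or the combination array of experiment 1, and 11 without the combination array of experiment 2. The aldolase ALDOC was at 11.28 and 11.04 in control and at 8.64 and 9.67 with LY2784544, and fell by 2.12 over 4 against 4 arrays (adjusted p = 0.00482). The phosphofructokinase-2 isoform PFKFB4 fell by 2.06 (adjusted p = 0.0115), the glucose transporter SLC2A3 fell by 0.78 (0.0115) and the pyruvate dehydrogenase kinase PDK3 fell by 0.885 (0.0455). The PDK3 call was lost without the filter (0.0578), with the filter at the 50th percentile (0.054), with one median (0.0569) and without any 1 of 6 arrays (0.0842 to 0.165), all but those of experiment 2 with LY2784544 or both agents. Without the GRN163L array of experiment 1 the calls of PFKFB4 (0.0709) and SLC2A3 (0.068) were lost, and that of SLC2A3 also without that of experiment 2 (0.0501). Of 20 targets of other functions 9 were called lower and none higher. Their means were lower for 17 and higher for 3, with a median of -0.73. The disulphide oxidase ERO1A fell by 2.065 (adjusted p = 9.14e-04), the mitophagy receptor BNIP3 fell by 2.575 (0.00236), TMEM45A fell by 1.15 (0.00583) and the mitochondrial protein FAM162A fell by 1.735 (0.00316). VEGFA and CITED2, held in the same list, were at -0.085 and 0.02 (adjusted p = 0.708 and 0.939). The medians within experiments 1 and 2 were -0.935 and -0.33 for the glycolytic targets and -1.03 and -0.42 for the others.

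The relatives of KDM3A and the partners of ADM showed no call over 4 against 4 arrays, where 4.46% of all genes were called with LY2784544. Of 15 other JmjC demethylases, 10 had lower and 5 higher means with LY2784544, with a median of -0.06 equal to that of all genes, and the lowest was the HIF target KDM4B at -0.65 (adjusted p = 0.073, and 0.0249 in the blocked fit). KDM5B was at -0.43 (adjusted p = 0.183), KDM6B at 0.23 (0.375) and KDM4A at 0.22 (0.359). Of 8 genes of adrenomedullin receptors and related peptides 4 were tested, and CALCRL, the receptor itself, lay under the filter level. All 4 had higher means with LY2784544, with a median of 0.249. They were dim, with mean signals from 4.655 for CALCA to 5.546 for ADM2, beside the filter level of 4.37. The related peptide ADM2 was at 0.22 (adjusted p = 0.448), CALCA at 0.28 (0.195), and the receptor-modifying RAMP1 and RAMP3 at 0.13 and 0.29 (0.694 and 0.303).

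**Figure D4:**
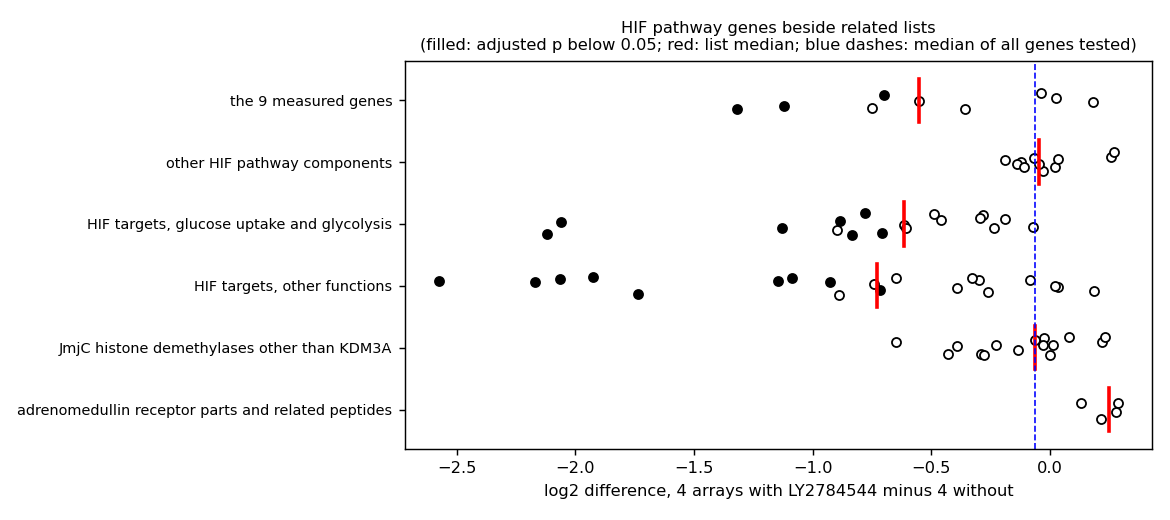
Log2 difference of the 4 arrays with LY2784544 minus the 4 without (horizontal axis) for each gene of the 9 and of the 5 related lists, with vertical jitter. Each gene has 1 point in every list that holds it, and KDM4B, KDM4C and CITED2 are each held in 2 lists. Filled points have an adjusted p below 0.05, red bars are list medians and the dashed line is the median of all genes. The HIF target lists reach medians of -0.615 and -0.73, while the other pathway components and the JmjC demethylases centre near the line. The 4 tested genes of the adrenomedullin list lie above 0, with a median of 0.249.

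Genes with the most similar course over the 8 arrays were found by the root mean square difference of the centred log2 values, as a description of these arrays. Nearest to EGLN1 were ZNF395, FGF11 and GGT5, at 0.208, 0.239 and 0.24, against a median of 0.733 over all genes. Nearest to KDM3A were RLF, CCSAP and SAP30, at 0.106, 0.135 and 0.146 (median 0.545). Nearest to ADM were SGK3, SPTAN1 and PARP3, at 0.088, 0.123 and 0.125 (median 0.422). Nearest to EGLN3 were YAF2, CEP57L1 and FAM221A, at 0.138, 0.149 and 0.153 (median 0.47). Likeness over the 8 arrays also takes in what differed between the experiments.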

How the data were processed

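Total RNA of HEL cells was measured on 8 Affymetrix arrays. The authors deposited log2 values, 1 for every probe set on every array, which they made with RMA (background subtraction, quantile normalization, summary per probe set) in Affymetrix Expression Console, per the submitters' processing notes. No version or genome build is given in the sources used here, and the log base was taken from the range of the values. Differences between dim probe sets come out too small in RMA values. Arrays give no depth, and their number limits the precision.

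Probe sets were named with GEO's platform annotation: 19181 of 33297 named 1 gene, 2055 several, and 12061 had no entry. The probe set with the highest mean stood for its gene, and genes with a mean under the 30th percentile (4.37) were left out. A limma fit (version 3.58.1, R 4.3.3) of 4 group means to all 8 arrays gave 8 contrasts, with Benjamini-Hochberg adjustment over 12570 genes, 4 residual degrees of freedom and 4.65 from moderation. The code was tested on simulated data. The labels place each array in experiment 1 or 2, which pairs the arrays; deviations from group means correlated between same-experiment arrays with r from 0.10 to 0.67. The block fit was an alternative, beside filters, scaling, moderation, probe set averaging, fits on the compared groups and leaving out each array. The members and lists were chosen with earlier results of these data known. All 10 genes were named, and of each related list the 4 with the smallest p in LY2784544 against control. VEGFA, CITED2, CDH5, TEK, VWF, COL1A1, COL1A2 and the pairs of related genes were named after their values were seen. The labels do not say what else separated the experiments, and the p-values cover only the spread among these samples.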

Additional observations from a re-analysis of the deposited data

How the results depend on the processing

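The experiment number pairs the arrays, and a fit with it as a block called more genes. Called genes numbered 345 with the block against 160 without it for LY2784544 against control, 1382 against 436 for the combination against control, 201 against 39 for the combination against LY2784544, 212 against 68 for the combination against GRN163L, 1305 against 560 for LY2784544 over 4 against 4 arrays, and 282 against 48 for GRN163L over 4 against 4. Of the 9 genes, 2 rather than 1 were called in LY2784544 against control (EGLN1, adjusted p = 0.0177 against 0.0588) and 1 rather than 0 in the combination against GRN163L (EGLN1, 0.0482 against 0.13; 0 with the block and one median), and the block changed no other call among the 9. Called glycolytic targets were 11 with the block against 7.

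Setting all arrays to one median, which removes the 0.146 lower medians with LY2784544, left 0 members called in LY2784544 against control and 1 in the combination against control, 36 genes (13 higher, 23 lower, against 9 and 59) in the combination against GRN163L, and 4 glycolytic targets. In the combination against control the genes called higher and lower became 174 and 184, against 95 and 341, and in LY2784544 against control 63 and 89, against 49 and 111. It turned the sign of small differences: ARNT to 0.035 in the combination against control, 0.075 in the combination against GRN163L and 0.109 with LY2784544, VHL to 0.07 in the combination against GRN163L, KDM3A to 0.017 in the interaction, HIF1A to 0.001 and EGLN2 to 0.021 with GRN163L, and HIF1AN, CUL2 and VEGFA to 0.119, 0.006 and 0.061 with LY2784544. The block and one median together, added after seeing the data, gave the same turned values, 2 members in LY2784544 against control, and 349 (165 higher, 184 lower), 1385 (840 and 545), 275 (147 and 128), 171 (81 and 90), 1320 (809 and 511) and 372 (195 and 177) genes in the order of the block counts above, so which direction holds more called genes depends on the scaling. It also called CREBBP and EP300 with LY2784544 (0.416 and 0.406, adjusted p = 0.0463 and 0.0437).

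Without the filter, members called were 0 in LY2784544 against control and 1 in the combination against control. With the filter at the 50th percentile they were 0 and 1, and 1 rather than 3 with LY2784544 over 4 against 4 arrays, because EPAS1 and ADM were not tested there; genes called were 70 in LY2784544 against control and 311 over 4 against 4. Fitting only the compared groups gave 0 and 1 members, and 79 genes in LY2784544 against control, 6 in GRN163L against control, 153 in the combination against control and 0 in the combination against LY2784544; it could not be fitted for the interaction and the comparisons of 4 against 4 arrays. The filter removes genes by construction, and the smaller fits hold fewer arrays. Apart from EPAS1 and ADM, which the 50th percentile filter removed, the cause of the changed calls was not tested. Of 605 differences of the 9 genes under these settings, 582 kept their direction and their side of the threshold. Another 14 turned sign, 6 lost a call and 3 gained one. Only the one-median scaling altered the differences themselves, so under the other settings the direction could not turn. Few of the differences were called to begin with, so few could lose a call. Leaving out 1 array turned the sign of 43 of 576 differences.

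Leaving out each array in turn, where a lone array is assumed to vary like the other groups, gave 0 to 1 members called in LY2784544 against control, 0 to 2 in the combination against control and 1 to 5 with LY2784544 over 4 against 4. Genes called ranged from 0 (without the control array of experiment 2) to 212 in LY2784544 against control, from 57 (without the same array) to 538 in the combination against control, from 16 to 45 in the combination against LY2784544, from 0 (without the GRN163L array of experiment 1) to 88 in the combination against GRN163L, from 0 to 8 in the interaction, from 123 (without the same array) to 659 with LY2784544 and from 0 (without the GRN163L array of experiment 2) to 89 with GRN163L. Called targets ranged from 1 to 11 for glycolysis and from 6 to 10 for other functions. Differences whose sign turned without some array were ARNT in LY2784544 against control (-0.105 to 0.185); in GRN163L against control EPAS1 (-0.295 to 0.355), ARNT (-0.17 to 0.12), EGLN1 (-0.905 to 0.045), EGLN2 (-0.11 to 0.24), EGLN3 (-0.89 to 0.26) and KDM3A (-0.265 to 0.945); in the combination against control ARNT (-0.285 to 0.005) and KDM3A (-1.05 to 0.16); in the combination against LY2784544 HIF1A (-0.22 to 0.44), EGLN2 (-0.22 to 0.06) and EGLN3 (-0.165 to 0.325). In the combination against GRN163L they were VHL (-0.295 to 0.055) and EGLN2 (-0.03 to 0.25), and in the interaction HIF1A (-0.055 to 0.605), EPAS1 (-0.16 to 0.49), EGLN1 (-0.215 to 0.735), EGLN2 (-0.32 to 0.03), EGLN3 (-0.18 to 0.97), KDM3A (-0.675 to 0.535) and ADM (-0.105 to 0.125). With LY2784544 over 4 against 4 they were ARNT (-0.11 to 0.035), VHL (-0.063 to 0.112), HIF1AN (-0.103 to 0.047), CUL2 (-0.348 to 0.068), CITED2 (-0.072 to 0.117) and RAMP1 (-0.012 to 0.273), and with GRN163L HIF1A (-0.193 to 0.137), EPAS1 (-0.05 to 0.275), EGLN2 (-0.095 to 0.08) and EGLN3 (-0.405 to 0.17). EPAS1 with LY2784544 over 4 against 4 kept its call without any 1 array (adjusted p up to 0.0388). The settings were applied to the target list counts and the other named genes after seeing the data. Permutation tests were also run on the 4 pairs of related genes, but are not given, since the pairs were chosen after their values were seen and the tests took no account of the experiment. Signal near the filter level limits EPAS1 and ADM.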
